A study of Rattus norvegicus with 12 samples.

Results

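The genes described here are 10 activity-dependent immediate early genes: *Fos*, *Fosb*, *Fosl2*, *Junb*, *Egr1*, *Egr2*, *Egr4*, *Arc*, *Npas4* and *Nr4a1*. They were found by symbol in a count table of 37209 genes, and all 10 were among the 20944 genes with enough counts to be tested. RNA was sequenced from the central nucleus of the amygdala (CeA) of 12 adult male Sprague Dawley rats, all wild type and 14 to 16 weeks old. In the CIE group, 6 rats had received chronic intermittent ethanol as daily vapor over several weeks, and in the Control group 6 rats had been kept in air. Rats of both groups were anesthetized with isoflurane and tissue was taken immediately after the last vapor or air exposure, with no withdrawal period in between. Each library held RNA from a tissue punch of 1 hemisphere of 1 rat, and the sources used here do not tell which rats shared a cage. Rat numbers follow the labels and run from 1 to 6 for CIE and from 7 to 12 for Control, and an effect that follows this order cannot be told apart from CIE.

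Immediate early genes are transcribed within minutes of neuronal firing and need no newly made protein for it. Calcium entry and kinases act on transcription factors that already sit near the start sites, among them CREB at cyclic AMP response elements (CRE) and serum response factor at CArG boxes. The transcripts are short-lived, and in the amygdala *Fos* in particular is widely used as a mark of neurons that have recently been active, for example after stress. Most of the products are themselves transcription factors: Fos and Jun family proteins pair to form AP-1, and the EGR and NR4A proteins are zinc finger factors.

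Promoters are shown for *Junb*, *Egr2*, *Egr4* and *Nr4a1* as examples that carry letters of these elements. The promoter of *Egr1* also carries them and is not printed. A link between these letters and the correlations across rats given further on was not tested. RefSeq promoter entries, on assembly GRCr8, were matched for 8 of the 10 genes, all but *Fos* and *Arc*. The sequences run from 250 bases before the annotated start to the base before it, and capitals mark a CRE core, a CArG box or an EGR site. The reads had been mapped to the earlier assembly Rnor_6.0, so these positions belong to GRCr8 only.
Junb, chr19:40080876-40081125, plus strand: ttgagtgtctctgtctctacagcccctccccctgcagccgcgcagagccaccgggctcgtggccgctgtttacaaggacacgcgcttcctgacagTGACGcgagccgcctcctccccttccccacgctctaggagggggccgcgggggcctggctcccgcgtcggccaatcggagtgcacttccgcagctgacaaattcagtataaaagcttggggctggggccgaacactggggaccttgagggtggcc
Egr2, chr20:21054442-21054691, minus strand: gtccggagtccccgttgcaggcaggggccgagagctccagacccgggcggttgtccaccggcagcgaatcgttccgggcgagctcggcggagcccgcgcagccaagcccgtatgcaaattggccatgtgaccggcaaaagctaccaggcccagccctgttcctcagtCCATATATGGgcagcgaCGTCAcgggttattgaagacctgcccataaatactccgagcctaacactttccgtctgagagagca
Egr4, chr4:119607818-119608067, minus strand: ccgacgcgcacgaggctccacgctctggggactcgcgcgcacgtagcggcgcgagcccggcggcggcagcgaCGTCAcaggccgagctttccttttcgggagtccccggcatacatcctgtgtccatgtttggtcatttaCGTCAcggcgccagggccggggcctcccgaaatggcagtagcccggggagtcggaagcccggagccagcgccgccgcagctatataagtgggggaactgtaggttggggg
Nr4a1, chr7:134259888-134260137, plus strand: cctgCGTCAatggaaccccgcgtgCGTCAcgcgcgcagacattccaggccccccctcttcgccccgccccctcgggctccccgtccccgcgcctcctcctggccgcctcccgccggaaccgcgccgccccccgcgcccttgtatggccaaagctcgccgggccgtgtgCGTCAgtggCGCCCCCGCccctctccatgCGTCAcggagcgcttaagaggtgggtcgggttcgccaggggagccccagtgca

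Both strands of the 250 bases were searched for the full CRE (TGACGTCA), its core (TGACG, which is also part of the full CRE), the CArG box, the AP-1 site (TGANTCA) and the EGR site (GCGNGGGCG). The CRE core was found in 5 of the 8 promoters and in 18.2% of the 33469 promoters in the table. *Nr4a1* held 4 matches to it, *Egr1* and *Egr4* held 2 each, and *Junb* and *Egr2* held 1 each. CArG boxes were found in *Egr1* and *Egr2*, that is in 2 of 8, and in 501 of the 33469 promoters. EGR sites were found in *Fosl2* and *Nr4a1*, in 2 of 8, and in 4.29% of all promoters. The full CRE (1.59% of all promoters) and the AP-1 site (6.34%) were in 0 of the 8. A match is a run of letters in this window and was not tested as a binding site.

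The comparison of CIE with Control asks whether transcripts of neuronal activity differed in the CeA of alcohol-exposed rats at the end of a vapor exposure. All 10 genes had a fitted log2 fold change above 0 (50.3% of all genes tested did), with a median of 0.39 against 0.00096 over all genes tested. None reached 5% FDR in edgeR's quasi-likelihood test, where 0.363% of all genes did, and none did with DESeq2 or limma-voom. At a nominal p value below 0.05, 2 of the 10 differed, *Junb* and *Fosb*, both higher in CIE, against 8.31% of all genes in either direction. No gene of the 10 had groups without overlap, which 0.893% of all genes had. The 10 genes varied together across rats, as given further on, so they are not 10 separate observations.

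Levels are given as CPM (counts per 1 M counted reads) with TMM normalization, and fold changes are log2 values of CIE relative to Control with the standard error (SE) and Benjamini-Hochberg FDR from edgeR. Total counts per rat lay between 39082548 and 95647601. The lowest count of any of the 10 genes in any rat was 44, for *Egr2*, so counting error was small beside the differences between rats.

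*Junb*, which encodes an AP-1 partner of the Fos proteins, had the smallest p value of the 10. Its level ranged from 25.4 to 59.2 CPM in CIE (median 50.3) and from 22.5 to 40.4 in Control (median 29.8). In CIE, 4 of 6 rats lay above every Control rat, while CIE rat 6 lay among the lowest Control rats. Relative to Control, *Junb* was higher by a log2 value of 0.60 (95% interval 0.20 to 1.01, SE 0.19, nominal p = 0.0066, edgeR FDR = 0.318), and the two-sided exact permutation test on log2 CPM gave p = 0.0325. Without CIE rat 6 the log2 fold change was 0.73 and the edgeR FDR 0.0458, so a single rat set the side of the threshold. The tissue markers of this rat are described further on. The nominal p stayed below 0.05 in all 12 fits that left out 1 rat, with the log2 fold change between 0.51 and 0.73.

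*Fosb* encodes another Fos family protein, whose truncated splice form, known as delta FosB, builds up in neurons under repeated stimulation. The counts were summed per gene and do not separate the splice forms. *Fosb* ranged from 2.85 to 9.63 CPM in CIE (median 5.36) and from 2.66 to 5.98 in Control (median 3.72). CIE rats 2 and 4 lay above every Control rat, and the other 4 lay within the Control range. The estimate was a log2 fold change of 0.60 (95% interval 0.025 to 1.18, SE 0.27, nominal p = 0.042, edgeR FDR = 0.577, exact permutation p = 0.108). The nominal p was above 0.05 without CIE rat 1, 2 or 4 or without Control rat 7, 8, 9 or 11, and the log2 fold change was lowest, at 0.41, without CIE rat 2.

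*Fos*, the most used activity marker of the family, did not differ in mean. It ranged from 4.61 to 13.9 CPM in CIE (median 7.75) and from 4.63 to 12.7 in Control (median 8.31). The ranges coincided almost fully, with CIE rat 5 and Control rat 12 highest in their groups. Its log2 fold change was 0.0014 (SE 0.28, nominal p = 0.996 in edgeR, exact permutation p = 0.989), and the 95% interval of -0.61 to 0.61 leaves room for a change in either direction. *Fosl2*, which encodes the Fos-related protein Fra-2, ranged from 2.65 to 7.38 CPM in CIE (median 6.29) and from 3.47 to 6.47 in Control (median 4.75), with a log2 fold change of 0.19 (SE 0.23, edgeR FDR = 0.878). CIE rat 6 was the lowest of all 12 rats for this gene and CIE rats 1, 4 and 5 were the highest.

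**Figure D1:**
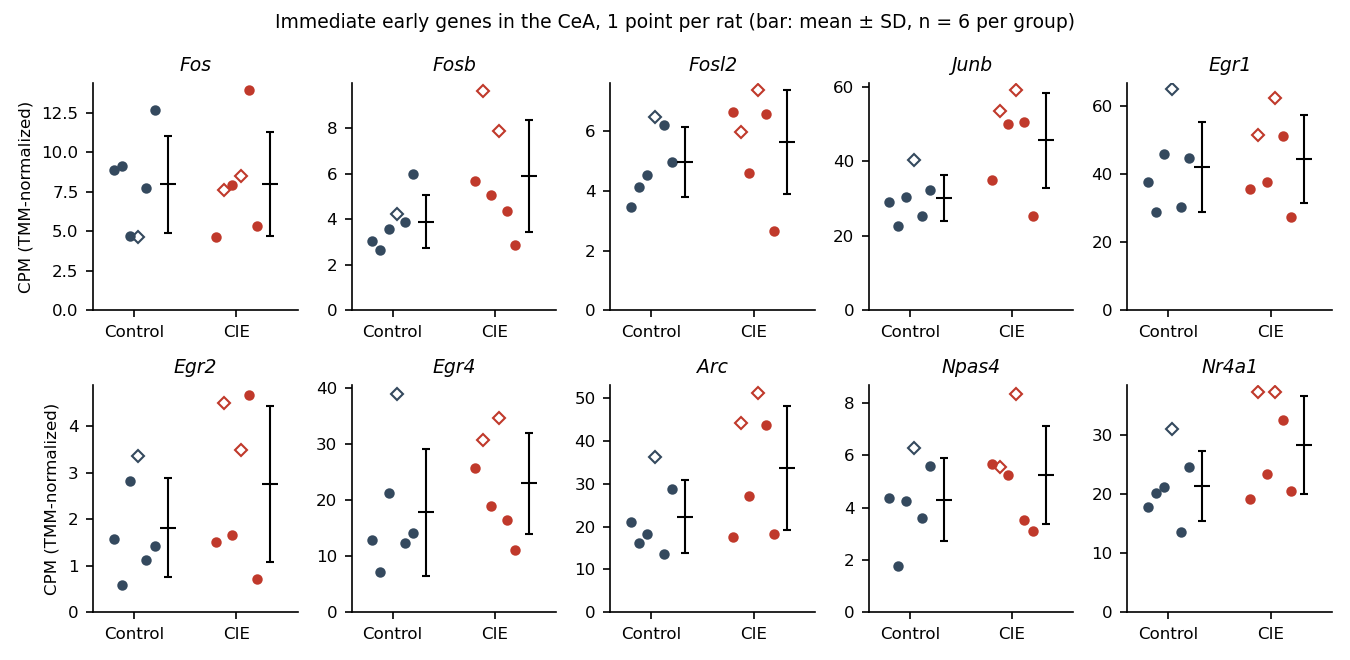
CPM with TMM normalization (linear axis from 0) of the 10 immediate early genes in each Control rat (blue) and CIE rat (red), with bars for mean ± SD (n = 6 per group). Open diamonds are CIE rats 2 and 4 and Control rat 10, whose striatal marker genes were high, and they lie at or near the top in most panels other than *Fos*.

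The EGR genes encode zinc finger factors that bind GC-rich sites. *Egr1* (also known as Zif268) ranged from 27.2 to 62.2 CPM in CIE (median 44.5) and from 28.9 to 64.8 in Control (median 41.1). No CIE rat lay above the highest Control rat. Its log2 fold change was 0.075 (SE 0.22, 95% interval -0.39 to 0.54, edgeR FDR = 0.955), and the sign turned when CIE rat 4 (-0.047), Control rat 8 (-0.0068) or Control rat 11 (-0.0030) was left out.

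*Egr2*, best known for its role in myelinating Schwann cells and also induced in active neurons, was the most variable of the 10. It ranged from 0.728 to 4.68 CPM in CIE (median 2.58) and from 0.582 to 3.37 in Control (median 1.51). CIE rats 2, 4 and 5 lay above all Control rats and the other 3 lay within the Control range. The log2 fold change was 0.60 (SE 0.47, 95% interval -0.41 to 1.61, edgeR FDR = 0.801), close to that of *Junb* but with a larger error. *Egr4* ranged from 11.1 to 34.8 CPM in CIE (median 22.4) and from 7.23 to 38.9 in Control (median 13.6), with a log2 fold change of 0.37 (SE 0.36, edgeR FDR = 0.848). Its highest value of all was in Control rat 10, and without that rat the log2 fold change was 0.76 and the nominal p value 0.0213.

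*Arc* encodes a cytoskeleton-associated protein that regulates AMPA receptor endocytosis at synapses and whose mRNA moves into dendrites. It ranged from 17.6 to 51.0 CPM in CIE (median 35.3) and from 13.6 to 36.3 in Control (median 19.7). CIE rats 2, 4 and 5 were above every Control rat, and CIE rats 1 and 6 were near the Control median. This gave a log2 fold change of 0.59 (95% interval -0.053 to 1.23, SE 0.30, nominal p = 0.0693, edgeR FDR = 0.639, exact permutation p = 0.149).

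*Nr4a1* (also known as Nur77), an orphan nuclear receptor, had the same 3 rats at the top. It ranged from 19.2 to 37.2 CPM in CIE (median 28.0) and from 13.6 to 30.9 in Control (median 20.7), and CIE rats 2, 4 and 5 again exceeded every Control rat. Its log2 fold change was 0.40 (95% interval -0.043 to 0.85, SE 0.21, nominal p = 0.0728, edgeR FDR = 0.650, exact permutation p = 0.123). *Npas4*, a factor induced selectively by calcium entry in neurons, ranged from 3.11 to 8.33 CPM in CIE (median 5.38) and from 1.76 to 6.27 in Control (median 4.30). Only CIE rat 4 lay above all Control rats, and the log2 fold change was 0.28 (SE 0.28, edgeR FDR = 0.853).

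**Figure D2:**
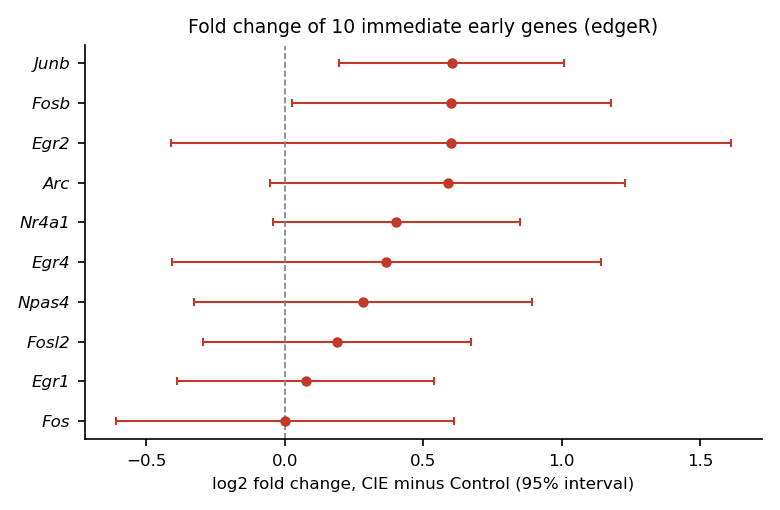
Log2 fold change of CIE relative to Control (horizontal axis) for each of the 10 genes, with 95% intervals from the edgeR fit over all 12 rats. The intervals of *Junb* (0.20 to 1.01) and *Fosb* (0.025 to 1.18) lie above 0, and those of the other 8 genes include 0.

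The intervals of the 10 genes overlapped, so an order of their fold changes is not established. *Junb*, *Fosb*, *Egr2* and *Arc* had estimates of 0.59 to 0.60, and *Fos* and *Egr1* had estimates below 0.1. A difference of fold changes between genes was not tested.

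These genes varied more between rats of the same group than most genes did. The pooled SD of log2 CPM within groups had a median of 0.54 over the 10 genes and of 0.23 over all genes tested. Among genes with a mean level within 2-fold of its own, each of the 10 stood between the 88.1 percentile (*Fosl2*) and the 99.0 percentile (*Egr4*) of this SD. *Egr2* had the largest SD (0.98), with the highest rat 8.03-fold above the lowest, and *Junb* had the smallest (0.39).

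The same rats tended to be high or low for most of these genes. CIE rat 4 was among the 3 highest of the 12 rats for 9 of the 10 genes, CIE rat 2 for 7 and CIE rat 5 for 6. Control rat 10 was among the 3 highest for 3 genes and among the 4 highest for 7. At the other end, Control rat 8 was among the 3 lowest for 8 genes, CIE rat 6 for 7 and Control rat 11 for 6.

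Across the 12 rats, 9 of the 10 genes had a positive correlation with each other in every pair, and no pair with *Fos* passed the test. Over the 36 pairs without *Fos*, Pearson's r of log2 CPM ranged from 0.45 (*Fosl2* and *Nr4a1*) to 0.95 (*Arc* and *Nr4a1*), with a median of 0.71. Of these pairs, 29 had a permutation p below 0.05 after Benjamini-Hochberg adjustment over all 45 pairs. For *Arc* and *Nr4a1*, Spearman's rho was 0.92 (permutation p = 0.0001), Pearson's permutation p was 2e-05 (adjusted 0.0009), and r was 0.92 without the 2 rats farthest from the median of *Arc*. For *Egr1* and *Egr2* r was 0.90 (permutation p = 0.00027, adjusted 0.00315, rho 0.88, permutation p = 0.00047), and for *Junb* and *Arc* r was 0.89 (permutation p = 0.00028, adjusted 0.00315, rho 0.89, permutation p = 0.00029). They were 0.93 and 0.82 without the 2 rats farthest from the median.

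The 9 pairs with *Fos* had r between -0.38 (*Egr4*) and 0.34 (*Arc*), with a median of 0.096. For *Fos* and *Arc*, the permutation p was 0.273 (adjusted over the 9 relations 0.834), rho was 0.23 (permutation p = 0.475), and r was 0.092 without CIE rats 1 and 5, the 2 farthest from the median of *Fos*. For *Fos* and *Junb*, whose products pair in AP-1, r was 0.19 (permutation p = 0.555, adjusted 0.834, rho 0.0070, permutation p = 0.991). None of the 9 had a permutation p below 0.05. Control rat 10, with *Egr4* and *Egr1* at the highest level of all rats, had 4.63 CPM of *Fos*, near the lowest value, while Control rat 12 had the second highest *Fos* value of the 12 and 14.2 CPM of *Egr4*.

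Within the groups, the median r of the 9 pairs with *Fos* was 0.68 in the 6 CIE rats and -0.37 in the 6 Control rats. In CIE r was 0.79 for *Arc*, 0.75 for *Egr2* and 0.69 for *Junb*, and in Control it was -0.13, -0.71 and -0.44. Other pairs were closer, with *Fosb* at 0.14 in CIE and 0.20 in Control and *Npas4* at -0.065 and -0.25. This difference between the groups was not tested. The 36 pairs without *Fos* had a median r of 0.76 in CIE and 0.66 in Control, so they were positively correlated on both sides.

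**Figure D3:**
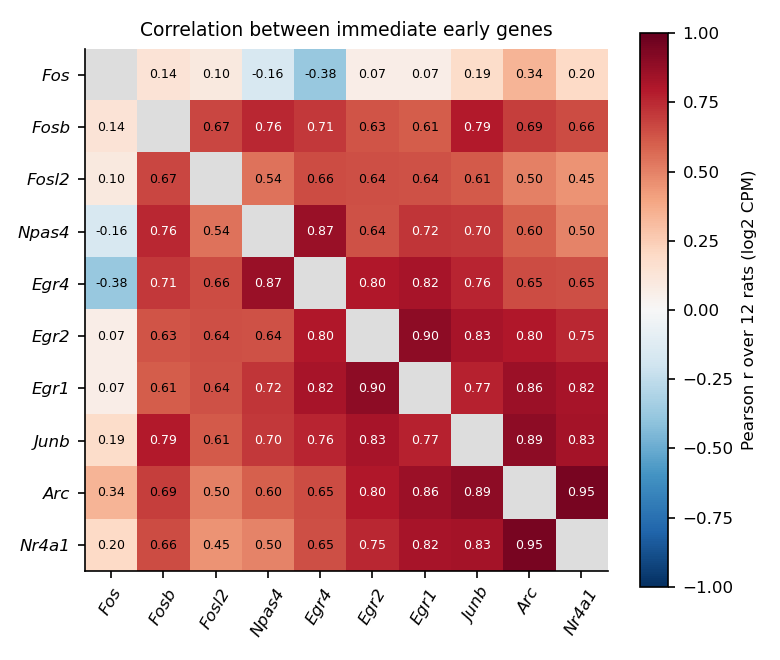
Pearson's r of log2 CPM over the 12 rats for every pair of the 10 genes, with the colour scale running from -1 to 1 and r printed in each cell. The *Fos* row and column hold values between -0.38 and 0.34, and all other pairs lie between 0.45 and 0.95.

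Punches differed in their levels of marker genes of neighbouring tissue. Whether they held different amounts of that tissue was not tested. *Slc17a7* (VGLUT1), the vesicular glutamate transporter of cortical and basolateral amygdala neurons, was at 348, 161 and 223 CPM in CIE rats 1, 2 and 4 and at 130 CPM in Control rat 10, and between 3.66 and 43.3 CPM in the other 8 rats. *Adora2a*, a marker of striatal projection neurons, was at 318 and 195 CPM in CIE rats 2 and 4 and at 400.4 CPM in Control rat 10. The 9 cortical glutamatergic markers summed to 525 to 1229 CPM in CIE and 476 to 1170 in Control, and the 8 striatal markers to 507 to 3595 in CIE and 261 to 3981 in Control. No gene of these lists was at 0 in any rat. The mean log2 CPM of each list was higher in CIE, by 0.90 for the cortical list (exact permutation p = 0.180) and 0.59 for the striatal list (exact permutation p = 0.459). All 9 cortical and all 8 striatal markers had a log2 fold change above 0, with medians of 0.85 and 0.27. In edgeR, 2 cortical and 0 striatal markers had a nominal p below 0.05. In bulk tissue, fewer cells of a type and less RNA per cell cannot be told apart.

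Markers of the CeA itself were present in every rat. *Prkcd*, which marks a major class of CeA neurons, lay between 22.7 and 46.3 CPM. Across 9 CeA markers, the mean differed by -0.056 between the groups (exact permutation p = 0.794). Their sums were 582 to 1868 CPM in CIE and 704 to 2270 in Control. The highest sums were in CIE rats 2 (1868) and 4 (1675) and Control rat 10 (2270), the rats with the highest *Adora2a*. By mean log2 CPM these rats (5.83 to 6.15) lay within the range of the others (5.14 to 6.16). Whether the list reads CeA tissue alone was not tested. Of the 9 markers, only *Nts* differed nominally in edgeR (log2 fold change -0.46, exact permutation p = 0.110). The mean of 9 general neuronal markers differed by -0.041 (exact permutation p = 0.374), with sums of 3362 to 3976 CPM in CIE and 3720 to 4043 in Control. Other lists were lower in CIE: all 8 oligodendrocyte markers had a nominal p below 0.05 (list mean -0.62, exact permutation p = 0.026, sums of 5494 to 13382 CPM in CIE and 8454 to 15818 in Control), as did 5 of 8 endothelial markers (-0.32, exact permutation p = 0.00433, 202 to 264 against 229 to 291) and all 5 blood markers (-2.07, exact permutation p = 0.00216, 89.4 to 285 against 361 to 661). The mean of the meningeal and choroid list was also lower (-0.46, exact permutation p = 0.00433), but its sums overlapped (9.12 to 14.3 against 9.85 to 13.7). Of its 6 genes 4 were tested, and 0 of these had a nominal p below 0.05. The astrocyte (-0.019, exact permutation p = 0.781) and microglial (-0.10, exact permutation p = 0.169) lists differed less. In CIE rat 6, without which *Junb* passed 5% FDR, the CeA (5.14 log2 CPM) and neuronal (8.37) marker means were the lowest of all rats. Its astrocyte (7.56) and microglial (5.12) means were the highest of all rats, and its oligodendrocyte mean (9.59) was the highest in CIE. The part of these cell types in the values of the immediate early genes was not tested.

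The 3 rats with the highest striatal markers, CIE rats 2 and 4 and Control rat 10, also held the 3 highest values of *Egr4* and of *Egr1*. For *Egr4* they lay between 30.8 and 38.9 CPM and the other 9 rats between 7.23 and 25.8. For *Egr1* they lay between 51.5 and 64.8 CPM and the other 9 between 27.2 and 51.2. In *Junb*, *Egr2*, *Arc*, *Nr4a1* and *Npas4* each of them ranked within the upper 5 of 12. For *Junb* they ranked 1, 2 and 5, and for *Egr2* 2, 3 and 4. For *Fosb* they ranked 1, 2 and 7, for *Fosl2* 1, 4 and 6, and for *Fos* 5, 8 and 11.

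Among the other 9 rats, the correlation of *Egr4* with the striatal marker mean was positive (Pearson r = 0.77, permutation p = 0.0155, adjusted over 10 genes 0.155, Spearman rho = 0.70, permutation p = 0.0427, adjusted 0.213). The 2 rats farthest from the median, Control rats 8 and 12, had marker means of 4.49 and 4.73 log2 CPM. The rest lay at 5.47 to 6.25. Without these 2 rats the correlation of *Egr4* had an r of 0.74. For *Fos* it was negative (r = -0.66, permutation p = 0.0532, adjusted 0.266, rho = -0.82, permutation p = 0.0107, adjusted 0.107, and r = -0.69 without those 2 rats). Neither relation passed the adjustment. Over the 8 rats with low *Slc17a7*, no correlation of the 10 genes with the cortical marker mean had an exact permutation p below 0.05. Values of r lay between -0.47 (*Egr2*) and 0.14 (*Nr4a1*), with every adjusted p at 0.951. The marker mean spanned 1.91 to 3.52 log2 CPM in these 8 rats and reached 5.06 in a rat left out. A relation at higher cortical levels could therefore not be seen. The values of r rest on few rats. The 2 rats farthest from the median, CIE rat 6 and Control rat 12, had *Slc17a7* at 37.2 and 43.3 CPM, against 3.66 to 6.13 in the rest. Without these 2 rats r ranged from -0.88 (*Npas4*) to 0.33 (*Fosl2*, from -0.31), with *Egr4* going from -0.37 to -0.63.

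**Figure D4:**
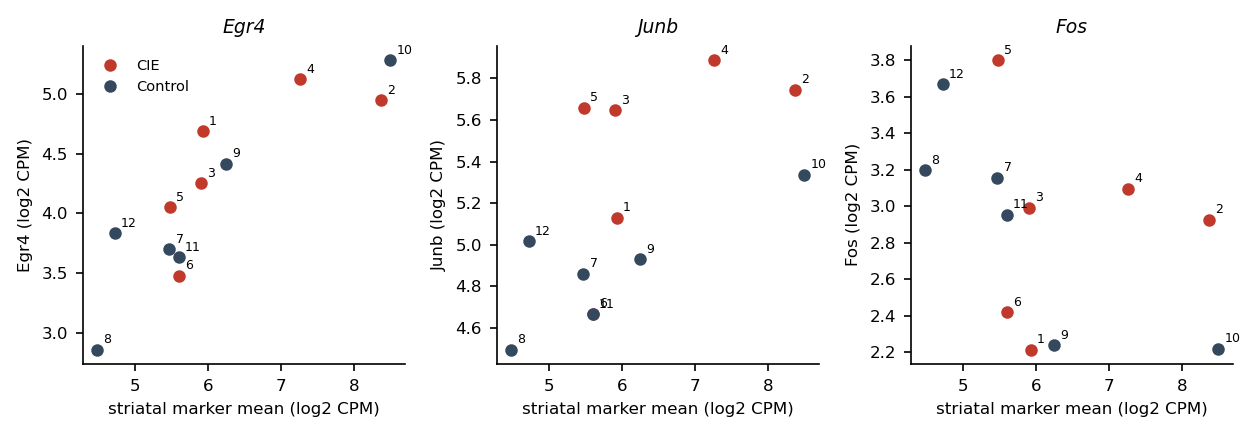
Log2 CPM of *Egr4*, *Junb* and *Fos* (vertical axes) against the mean log2 CPM of 8 striatal projection neuron markers (horizontal axes), 1 numbered point per rat, CIE in red and Control in blue. CIE rats 2 and 4 and Control rat 10 stand apart at marker means above 7, where *Egr4* is highest and *Fos* is not. For *Junb*, 4 CIE rats lie above every Control rat. Control rats 8 and 12 (marker means 4.49 and 4.73) lie below every CIE rat, and Control rat 7 (5.473) lies close to CIE rat 5 (5.483), the lowest in CIE.

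With both marker means as covariates in edgeR, the estimate of *Junb* was 0.54 (edgeR FDR = 0.276) and still nominally different, and that of *Fosb* was 0.29 (edgeR FDR = 0.789) and no longer so. In that fit *Egr2* stood at 0.59, *Arc* at 0.44, *Nr4a1* at 0.27, *Fos* at 0.21, *Egr4* at 0.14, *Npas4* at 0.053, *Fosl2* at 0.049 and *Egr1* at -0.038. With CIE rats 1, 2 and 4 and Control rat 10 left out, a choice made after seeing the data, *Junb* stood at 0.60 (edgeR FDR = 0.677) and *Arc* at 0.61 (edgeR FDR = 0.919), the 2 genes with a nominal p below 0.05, while *Fosb* stood at 0.11 (edgeR FDR = 0.999), *Fosl2* at 0.0030 and *Npas4* at 0.030. In these 8 rats the 36 pairs without *Fos* had a median r of 0.60, from 0.16 to 0.91, and the 9 pairs with *Fos* one of 0.41. The other estimates without these 4 rats were 0.65 for *Egr2*, 0.40 for *Nr4a1*, 0.21 for *Egr4*, 0.079 for *Fos* and 0.063 for *Egr1*.

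The nearest relatives of the 10 genes gave no call either. Of 8 AP-1, EGR and NR4A relatives tested, 0 passed 5% FDR and 0 had a nominal p below 0.05, with 6 fold changes above 0 and a median of 0.15. *Nr4a3* ranged from 10.7 to 33.9 CPM in CIE (median 15.7) and from 8.08 to 20.8 in Control (median 11.6), with a log2 fold change of 0.64 (SE 0.31, edgeR FDR = 0.621), and of 0.076 without the 4 rats named above. *Nr4a2*, needed for midbrain dopamine neurons, had a log2 fold change of 0.61 (SE 0.34, edgeR FDR = 0.695), which fell to 0.048 without CIE rat 2. *Fosl1*, which encodes Fra-1, had one of 0.25 (SE 0.16, edgeR FDR = 0.730).

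Other rapid response genes had the smallest p values of any activity-regulated list. Of 28 listed, 26 were tested (*Amigo3* and *Spry4* had 0 counts in every rat), 0 passed 5% FDR, and 7 had a nominal p below 0.05, 6 higher and 1 lower in CIE, where 8.31% of all genes had one (837 higher and 903 lower of 20944). The median log2 fold change of the 26 was 0.20. *Per1*, a clock gene that is also induced by CREB and by glucocorticoids, ranged from 49.9 to 92.2 CPM in CIE (median 70.2) and from 35.9 to 62.0 in Control (median 44.5). All CIE rats but rat 3 lay above every Control rat. On the log2 scale it was higher by 0.66 (SE 0.15, edgeR FDR = 0.0863, nominal p = 0.00048, exact permutation p = 0.00433).

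*Dusp1*, the phosphatase that switches off MAP kinases, ranged from 16.4 to 32.9 CPM in CIE (median 22.2) and from 9.69 to 16.8 in Control (median 13.4), and only CIE rat 1 lay within the Control range. Its log2 fold change was 0.79 (SE 0.19, edgeR FDR = 0.124, nominal p = 0.0009, exact permutation p = 0.00433). *Nfil3*, a transcriptional repressor tied to the circadian clock, was the 1 gene lower in CIE, with 5.43 to 8.41 CPM in CIE (median 6.05) and 7.71 to 11.2 in Control (median 8.39), and a log2 fold change of -0.49 (SE 0.13, edgeR FDR = 0.181, nominal p = 0.0020, exact permutation p = 0.00866). By DESeq2, these 3 genes passed 5% FDR (0.0021 for *Per1*, 0.0049 for *Dusp1* and 0.0401 for *Nfil3*), and by limma-voom *Per1*, *Dusp1* and *Errfi1* did.

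The other 4 with a nominal p below 0.05 were *Errfi1*, a feedback inhibitor of EGF receptors (log2 fold change 0.30, edgeR FDR = 0.370), *Maff*, a small Maf protein (0.75, edgeR FDR = 0.450), *Gadd45b*, a growth arrest and DNA damage gene (0.45, edgeR FDR = 0.462), and *Klf4*, a zinc finger factor (0.41, edgeR FDR = 0.475). *Maff* was scarce, with 11 counts in its lowest rat. The other 19 genes tested had a nominal p above 0.05.

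**Figure D5:**
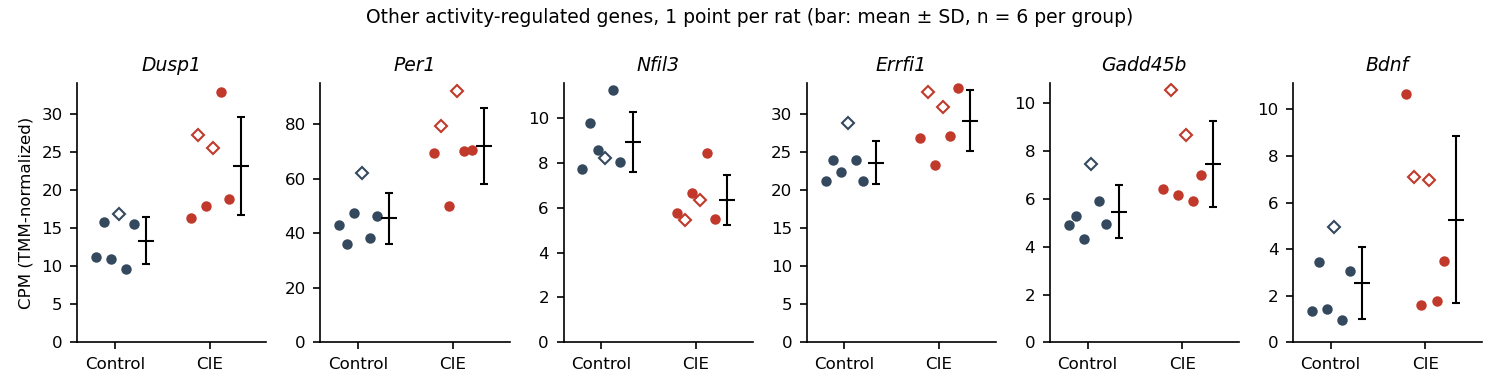
CPM with TMM normalization (linear axis from 0) of *Dusp1*, *Per1*, *Nfil3*, *Errfi1*, *Gadd45b* and *Bdnf* in each Control rat (blue) and CIE rat (red), with bars for mean ± SD (n = 6 per group) and open diamonds for CIE rats 2 and 4 and Control rat 10. In *Dusp1* and *Per1*, 5 of 6 CIE rats lie above all Control rats, in *Nfil3* 5 of 6 lie below, and *Bdnf* is spread from 1.62 to 10.6 CPM within CIE.

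Effectors and upstream regulators showed no gene at 5% FDR or at a nominal p below 0.05 in edgeR, among 13 synaptic and secreted effectors (median log2 fold change 0.039) and 14 kinases and factors (median 0.098). *Bdnf*, the neurotrophin whose activity-driven transcripts depend on CREB and Npas4, ranged from 1.62 to 10.6 CPM in CIE (median 5.23) and from 0.982 to 4.97 in Control (median 2.26), with an estimate of 1.04 on the log2 scale (SE 0.49, edgeR FDR = 0.615). Its 3 highest values were in CIE rats 1, 2 and 4, which had the highest *Slc17a7*, and with the marker covariates its estimate was 0.092. *Mapk3* (ERK1) had a log2 fold change of -0.15 (edgeR FDR = 0.602), *Creb1* one of -0.094 (edgeR FDR = 0.721), *Mef2a* one of 0.27 (edgeR FDR = 0.694), *Vgf* one of -0.21 (edgeR FDR = 0.632) and *Plk3* one of -0.29 (edgeR FDR = 0.651). Over the 4 lists together, 61 genes were tested, 0 passed 5% FDR, 7 had a nominal p below 0.05 (8.31% of all genes did), and 70.5% had a fold change above 0 (50.3% of all genes did).

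To describe which genes followed *Fos* and *Arc* most closely, log2 CPM was centred within each group and correlated over the 12 rats with each of 16881 other genes of at least 1 CPM on average. The 8 nearest to *Fos* were *RGD1305938* (r = 0.91), *Ugcg*, *Ntm*, *Osbpl2*, *Coq10b*, *LOC100911751*, *Cdh2* and *Dctn4* (r = 0.85). The 8 nearest to *Arc* were *Zfp654* (r = 0.97), *Topaz1*, *Tnpo3*, *Gtf2h1*, *LOC102547740*, *Gtf2a2*, *Rhot1* and *Zkscan5* (r = 0.88). None of the 16 belonged to a list used here. With the 10 genes included, *Nr4a1* ranked 3, *Egr1* 6 and *Junb* 9 by their r with *Arc*, whereas the best of the 10 for *Fos*, *Arc*, ranked 2695. These are descriptions over 12 rats among many genes, and *Ugcg*, the enzyme that makes glucosylceramide, and *Cdh2*, N-cadherin, had log2 fold changes of -0.011 and 0.018.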

How the data were processed

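Poly-A RNA of a CeA punch from each of the 12 rats was sequenced. Per the study's methods and the labels, the authors aligned read pairs with BWA (assembly Rnor_6.0), obtained counts with HTSeq and deposited these raw counts per gene, with no filter. The gene annotation and the strand and overlap settings are not given in the sources used here, so reads shared with overlapping or antisense genes cannot be told apart. The authors' own test was DESeq2 1.26.

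The groups were compared by edgeR 4.0.16 in R 4.3.3 (TMM, filterByExpr, quasi-likelihood F test, two-sided, no covariates, FDR over 20944 genes, threshold 5%), with limma 3.58.1 and DESeq2 1.42.0 as alternatives. Descriptions, correlations and plots used scipy 1.17.1, numpy 2.4.6, matplotlib 3.10.9 and pandas 2.3.3 under Python 3.11.15. SE was taken from the log2 fold change over the root of F. Log2 CPM used a prior count of 2. Exact permutation tests used 924 assignments, with 0.00216 the smallest p they allow. Correlations used 100000 permutations, or all orders for 8 rats. Promoters were searched over 250 bases before the start, where 300 bases across it had been planned. P values of the group comparison set the difference between groups against the spread between rats, which the labels give as separate animals. Those of correlations come from permuting rats. Per the study's methods the rats were group housed, and cage was not modelled.

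The members, gene lists and markers were chosen with earlier results of these data known. All 10 members were named, and from each other list the genes at 5% FDR or else the 3 smallest p values. Outside this rule, after values were seen, *Maff*, *Errfi1*, *Gadd45b* and *Klf4* (the other nominal calls) were named. On simulated counts with 200 genes changed by a log2 value of 1, edgeR recovered 136 and called 5 unchanged genes. With limma-voom 134 were recovered and 6 called (both among 20688 genes), and with DESeq2 152 and 28 (among 20944). The 200 genes were drawn at random. The 10 members had estimates of at most 0.60 and a larger SD between rats (median 0.54 against 0.23 over all genes tested). The recovery therefore does not measure the power for the members.

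The 19 alternatives were DESeq2, DESeq2 size factors within edgeR, scaling by library size alone, no filter on low counts, a minimum of 10 counts per rat, limma-voom with sample quality weights, cortical and striatal marker means as covariates, and leaving out each of the 12 rats. Leaving out CIE rats 1, 2 and 4 and Control rat 10 (*Slc17a7* above 100 CPM), all 45 pairs, and the striatal marker mean over 9 rats (mean log2 CPM below 7) were added after seeing the data. The correlations with the cortical marker mean had been planned over all 12 rats. Marker correlations were instead given within the rats kept by these limits, and those over 12 rats are not given. Whether the rats form separate clusters by these markers was not tested. The cortical marker mean reached 3.52 log2 CPM in the rats kept and began at 4.24 in those left out.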

Additional observations from a re-analysis of the deposited data

Results flagged for a closer look

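Among the 26 genes with levels given by rat, each group of 6 was searched for a single rat far from the other 5 by Dixon's test, and 4 of 52 groups had one, where chance gives about 1 in 20. *Nr4a3* in Control rat 10 was at 20.8 CPM, with the other Control rats at 8.08 to 11.8. *Nr4a2* in CIE rat 2 was at 39.3 CPM, with the other CIE rats at 7.34 to 12.1. *Errfi1* in Control rat 10 was at 28.8 CPM against 21.2 to 24.0 in the other Control rats, and *Mef2a* in the same rat at 171 CPM against 92.5 to 117. Control rat 10 and CIE rat 2 are the rats with the highest striatal marker means (8.50 and 8.37 log2 CPM). None of the 10 immediate early genes had such a rat.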

How the results depend on the processing

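The main limits are the spread of these genes between rats, the uneven marker levels of the punches and the 6 rats per group. Of the 10 immediate early genes, 0 passed 5% FDR in the 8 alternatives that kept all rats or left out 4, and 0 to 1 did when 1 rat was left out (*Junb*, without CIE rat 6). The count with a nominal p below 0.05 was 5 with limma-voom, 1 with the marker covariates and 1 to 5 when 1 rat was left out. Over the 4 other activity lists, 1 gene passed 5% FDR with library size only, 3 with DESeq2, 3 with limma-voom and 0 to 1 with 1 rat left out. Over all genes, 266 passed with DESeq2, 234 with limma-voom, 15 without the 4 rats of high *Slc17a7*, and 34 (without Control rat 9) to 154 (without CIE rat 6) with 1 rat left out. Signs turned for *Fos* without a filter (-0.0030) and when 1 rat was left out (-0.23 to 0.18), for *Egr1* with the marker covariates (-0.038) and when 1 rat was left out (-0.047 to 0.24), and for the r of *Fos* and *Npas4* without the 4 rats (0.075). The other 8 genes stayed above 0 in every fit. The causes were not tested. No paired analysis was possible because the rats' numbers run on across the groups and are shared by none.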

Other observations

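The balance of the Fos family transcripts was looked at after the values were seen. The log2 ratio of *Fosb* to *Fos* CPM had a mean of -0.45 ± 0.78 (SD, n = 6) in CIE and -0.99 ± 0.63 (SD, n = 6) in Control, a difference of 0.54 that did not pass a two-sided exact permutation test (p = 0.210).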
